A study of Sus scrofa with 8 samples.

Results

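The genes described here are the numbered zinc finger genes, the protein-coding genes of the deposited pig annotation whose symbol is ZNF followed by digits alone. There were 240 of them among 20679 protein-coding genes, and each of the 240 symbols stood on 1 gene. The study profiled tracheal submucosal glands (SMGs, the glands beneath the airway surface) of newborn pigs by 3′ single-cell RNA sequencing. Its 8 libraries came from 4 wild-type and 4 CFTR−/− animals, the latter lacking the anion channel that is defective in cystic fibrosis. The data used here are the gene annotation that the authors edited and then used for counting in all 8 libraries, on the pig genome Sscrofa11.1. It holds coordinates and no value per animal, so the lengths and counts below carry no replicate error, no test between genotypes was possible, and the depth behind any read count is unknown.

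Most numbered ZNF genes encode DNA-binding proteins built from a row of classical zinc fingers, in each of which a pair of cysteines and a pair of histidines hold a zinc ion. Neighboring fingers are often joined by a short linker of threonine, glycine, glutamate, lysine and proline. Many of these proteins also carry a KRAB box near their amino terminus, which recruits the corepressor TRIM28 and through it enzymes that silence chromatin, including that of transposable elements. The family is known to have grown by tandem duplication, and the symbol is given by number rather than by function, so that it also holds genes of other kinds.

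The linker can be read directly in the genome. It is shown for 5 members of the largest cluster (described below), chosen because they include the nested pair ZNF146 and ZNF565 and the pair ZNF568 and ZNF829, which face each other with adjacent starts. Each sequence is the first such junction in the last coding exon, read 5′ to 3′ on the strand of the gene, with the 15 linker bases in capitals between the last histidine codon of a finger and the first cysteine of the next.
ZNF146, chr6:45598553-45598579, plus strand: catACTGGAGAGAAACCTtttgagtgt
ZNF565, chr6:45545056-45545082, minus strand: catACTGGTGAAAAGCCCtttgaatgt
ZNF260, chr6:45874938-45874964, plus strand: catACTGGAGAGAAACCAtatgaatgt
ZNF568, chr6:46095505-46095531, minus strand: catACTGGGGAAAAACCAtataagtgt
ZNF829, chr6:46133416-46133442, plus strand: cacACTGGTGAAAAACCTtatgaatgt

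All 12 members of that cluster held such a junction, and their 12 first linkers were 12 different sequences that encode the same 5 residues. Across the 240 genes, 135 (56.2%) had at least 1 junction of this form in the last coding exon, with 669 linkers of 130 different sequences. Such a junction was present in 0.763% of the other protein-coding genes, in 32 of 107 genes (29.9%) of other named zinc finger families and in 98 of 129 zinc finger protein genes with a provisional LOC symbol (76%). The commonest, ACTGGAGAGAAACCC, accounted for 61 of the 669 (9.12%).

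At the opposite end of the family stood the last coding exons of ZNF423 and ZNF521, a pair of related transcription factors with many fingers. They were the shortest of all 240 and are shown whole, with the stop codon in capitals.
ZNF423, chr6:35298997-35299026, plus strand: aaccacacgatgagccagcacgcacagTGA
ZNF521, chr6:109834401-109834430, minus strand: aatcatacgatgacccaacacagcagtTAG

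Each held 30 coding bases, and 18 of the 30 positions were equal. No finger motif lay wholly in either, and most of their fingers, described below, lay in an earlier exon. Both short exons encode a pair of histidines at a spacing that the motif defined below allows. A motif that crossed the exon boundary was not counted in the last coding exon.

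The numbered ZNF genes were unevenly spread over the genome. Chromosome 6 held 77 of the 240 (32.1%), whereas it held 10% of all protein-coding genes. Next came chromosome 3 with 31 genes and chromosome 14 with 18. Chromosomes 11 and Y held none, and ZNF311 and ZNF839 lay on sequences not placed on a chromosome. The remaining chromosomes held between 2 and 14 members each.

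**Figure D1:**
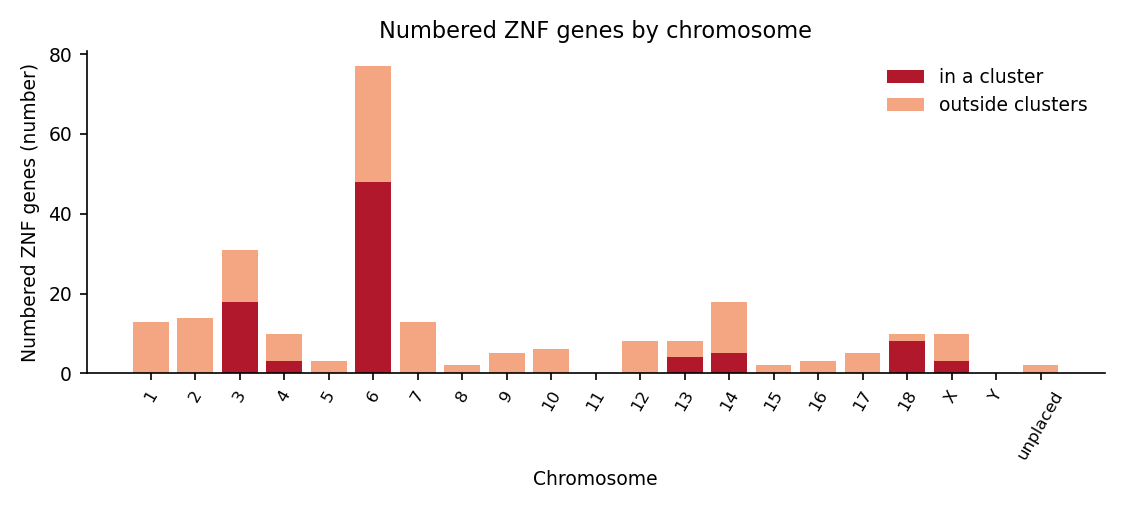
Number of numbered ZNF genes on each chromosome, split into genes inside clusters (dark) and outside clusters (light). Chromosome 6 stands highest with 77 genes, of which 48 lie in clusters.

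A cluster was defined as at least 3 numbered ZNF genes on 1 chromosome, each within 200 kb of the next. By this definition 89 genes (37.1%) fell into 15 clusters, and 7 of these clusters, with 48 genes, lay on chromosome 6. The median distance to the nearest other member was 136.788 kb over the 238 placed genes, with quartiles of 12.6 kb and 2743 kb. In the order of protein-coding genes along the chromosomes, 87 members (36.2%) stood directly beside another member. Of 95 neighboring pairs of members within 200 kb, 46 (48.4%) lay on the same strand, beside 10353 of 20365 neighboring pairs (50.8%) among all protein-coding genes.

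The largest cluster, at chr6:45520885-46468679, spanned 947.795 kb and held 12 numbered ZNF genes, 8 on the plus and 4 on the minus strand. In order they were ZNF146, ZNF565, ZNF567, ZNF382, ZNF529, ZNF260, ZNF566, ZNF568, ZNF829, ZNF383, ZNF527 and ZNF570. The 6 other protein-coding genes of the span were 5 zinc finger protein genes with a provisional LOC symbol and ZFP14, a further zinc finger gene. No protein-coding gene of another kind lay between them. A KRAB match was found in 10 of the 12, the exceptions being ZNF146 and ZNF260, both with a single coding exon.

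**Figure D2:**
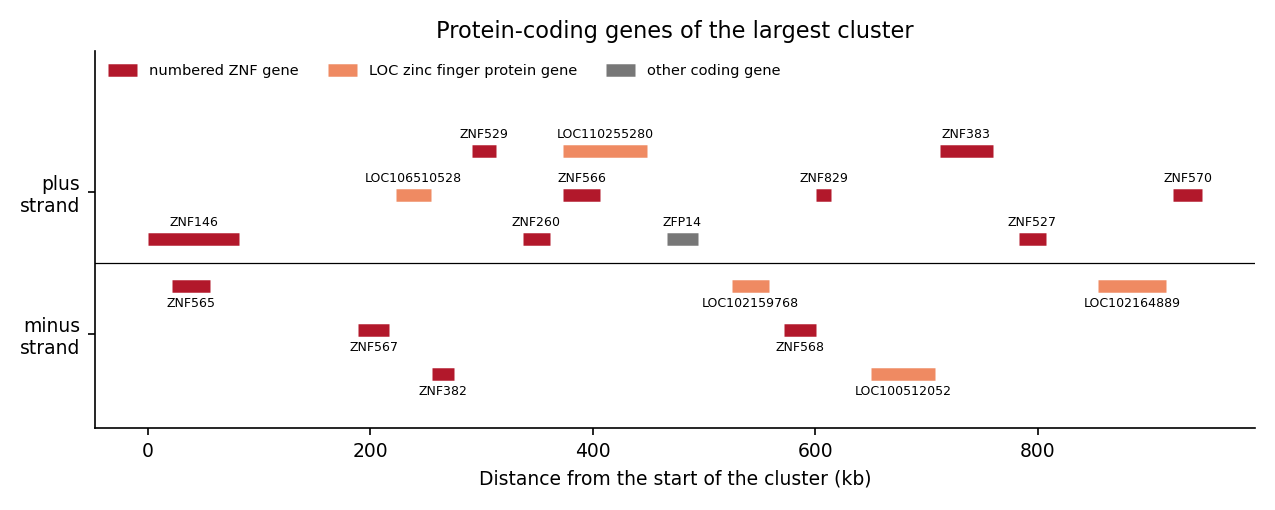
Protein-coding genes of the largest cluster drawn to scale by distance from the start of the cluster in kb, plus strand above and minus strand below the line, with height within a strand used only to keep names apart. The 12 numbered ZNF genes lie among 5 LOC zinc finger protein genes and ZFP14, and ZNF565 lies inside the span of ZNF146 on the other strand.

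Within this cluster the genes shared a plan but varied in size. The last coding exon ranged from 863 bases in ZNF383 to 1721 bases in ZNF567, with a median of 1313, and 11 was the median number of fingers. ZNF566 had the fewest fingers, 7, and ZNF383 the most, 20, of which 9 lay in its last coding exon. The 3′ UTR ran from 579 bases in ZNF566 to 3095 bases in ZNF260. Exon number ran from 3 in ZNF146, ZNF565, ZNF260 and ZNF529 to 7 in ZNF568.

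The second cluster, at chr3:17396757-17925593, held 9 members among 28 protein-coding genes and differed from the first in its company. ZNF646, ZNF668, ZNF629, ZNF689, ZNF688, ZNF764, ZNF768, ZNF771 and ZNF48 lay there among 19 other protein-coding genes, none named as a zinc finger gene by symbol or LOC product. The 19 included SETD1A, a histone methyltransferase, and STX4, a membrane fusion protein. Only 3 of the 9, ZNF689, ZNF688 and ZNF764, had a KRAB match. ZNF688 held 2 fingers and ZNF646 held 30. The 3′ UTR ranged from 259 bases in ZNF771 to 6842 bases in ZNF629.

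In 3 further clusters there were 8 members each. The first of these, at chr6:50395042-51008492, held ZNF575, ZNF576, ZNF428, ZNF283, ZNF404, ZNF45, ZNF112 and ZNF180 with 3 LOC zinc finger protein genes and 12 other protein-coding genes. Its first 3 members had 6, 4 and 1 fingers and last coding exons of 659, 428 and 503 bases. The other 5 members had 12 to 28 fingers and last coding exons of 1523 to 1955 bases. ZNF112 carried the 28 fingers, 15 of them in its last coding exon, and had 11 exons.

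The next, at chr6:60422389-60940612, held ZNF787, ZNF444, ZNF667, ZNF583, ZNF582, ZNF471, ZNF470 and ZNF835 with 2 LOC zinc finger protein genes and 6 other protein-coding genes. Last coding exons ranged from 590 bases in ZNF444 to 1865 bases in ZNF470, and fingers from 4 in ZNF444 to 17 in ZNF471 and ZNF470. ZNF583, ZNF582 and ZNF471 had a KRAB match. The last of the clusters of 8, at chr18:55495145-55954153, held ZNF282, ZNF212, ZNF783, ZNF777, ZNF746, ZNF467, ZNF862 and ZNF775 with 6 other protein-coding genes. Fingers ranged there from 0 in ZNF862, which had the longest last coding exon of the cluster at 2363 bases, to 12 in ZNF467, and 5 of the 8 genes had a KRAB match.

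Clusters also differed in their median number of fingers. The 8 members on chromosome 18 had a median of 4.5, the 3 on chromosome 3 between ZNF12 and ZNF853 a median of 14. The 5 genes ZNF10, ZNF891, ZNF140, ZNF84 and ZNF605 on chromosome 14 filled their span of 160.784 kb alone, and all 5 had a KRAB match. In contrast, the 6 genes between ZNF628 and ZNF581 on chromosome 6, and the 6 between ZNF597 and ZNF205 on chromosome 3, had no match.

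The annotation also named 129 protein-coding genes by a LOC symbol with a zinc finger protein as product, and 73 of them lay on chromosome 6. Of the 129, 82 were within 200 kb of a numbered ZNF gene. Counting both kinds together gave 27 clusters with 216 genes, 111 of them numbered (46.2% of the 240) and 105 with a LOC symbol. The largest combined cluster, at chr6:61558424-63143294, held 39 genes over 1584.87 kb, of which 10 were numbered. ZNF331 was the only numbered gene in a combined cluster of 15 on the same chromosome.

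Some members stood far from all others. ZNF703 and ZNF142 were the only members on chromosome 15 and lay 71992.2 kb apart. ZNF292 on chromosome 1 was 51625.5 kb from the nearest member.

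The last coding exon was long in the numbered ZNF genes. In the transcript with the longest coding sequence of each gene, it held a median of 1154 coding bases, stop codon included (quartiles, 600.75 and 1577.75), whereas the 20434 other protein-coding genes with a coding model had a median of 184 (quartiles, 108 and 495). It made up a median of 76.7% of the coding sequence, beside 16.04% in the other genes. A last coding exon of at least 1000 coding bases was present in 138 numbered ZNF genes (57.5%) and in 7.65% of the other genes. At least 80% of the coding sequence lay in that exon in 107 members (44.6%), beside 18.6% of the other genes and 8.83% of the 16308 other genes with a name in place of a LOC symbol, called named genes below.

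**Figure D3:**
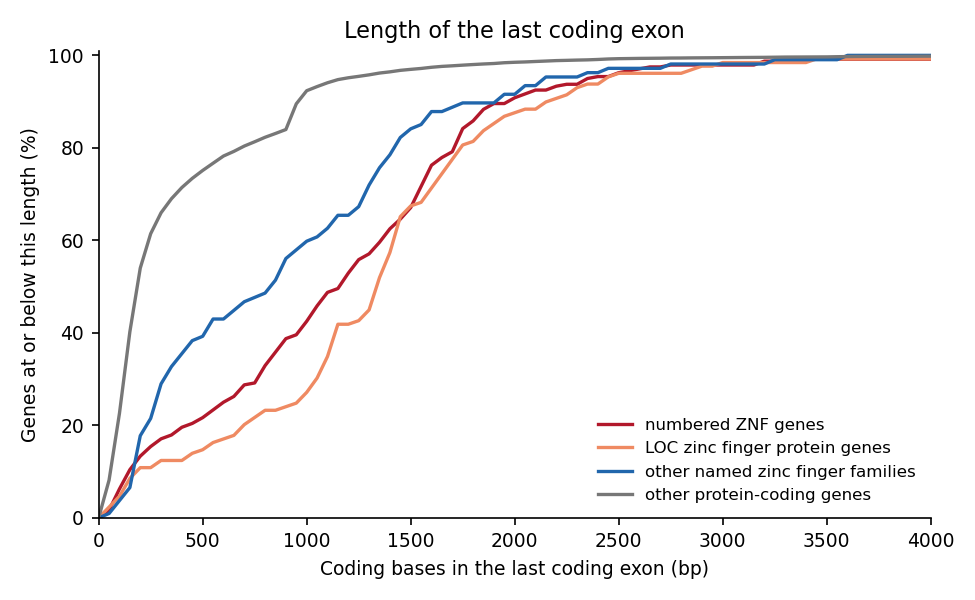
Cumulative percentage of genes by the number of coding bases in the last coding exon (bp, shown to 4000), for numbered ZNF genes, LOC zinc finger protein genes, other named zinc finger families and all other protein-coding genes. The medians are 1154, 1346, 833 and 184 bases, and the group of all other genes includes the LOC genes and the named families.

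The nearest groups of genes lay on either side. The 129 LOC zinc finger protein genes had a median of 1346 bases in the last coding exon, 84.5% of the coding sequence. The 107 genes of other named zinc finger families (ZSCAN, ZKSCAN, ZBTB, ZFP, KLF, SP, ZIC, EGR and GLI) had a median of 833 bases and 44.8%. Among the numbered genes, the 89 in clusters had a median of 1463 bases and the 151 outside clusters 908 bases, and the exon reached 1000 bases in 68 of the 89 (76.4%) and in 70 of the 151 (46.4%).

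The range within the family ran from 30 to 11436 bases. ZNF469, a gene known for corneal disease, had the longest at 11436 bases, its whole coding sequence in 1 exon. ZNF292 followed with 7149 bases, ZNF318 with 3327, ZNF628 with 3179 and ZNF865 with 3165. Beside ZNF423 and ZNF521, the shortest last coding exons were those of ZNF410 with 39 bases, ZNF451 with 47 and ZNF106 with 57.

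The fingers followed this exon. A finger was counted where the translated coding sequence held a cysteine, 2 to 4 residues, a cysteine, 12 residues, a histidine, 3 to 5 residues and a histidine. The 240 proteins held 2285 such motifs, with a median of 9 per protein (quartiles, 5 and 12), and 1780 of the motifs (77.9%) lay wholly in the last coding exon. In the LOC zinc finger protein genes the share was 92.7% and in the other named families 66.5%. At least 1 motif was found in 232 members (96.7%) and in 2.36% of the other protein-coding genes, and at least 5 in 191 members (79.6%) and in 1.15% of the others (0.717% of named genes). Of the 232 members with a motif, 166 had all of them wholly in the last coding exon and 45 had none wholly there. A further 12 motifs crossed the start of that exon. Neighboring motifs at most 10 residues apart formed 1734 pairs, and 901 of these (52%) had the linker given above or its form with arginine in place of lysine.

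**Figure D4:**
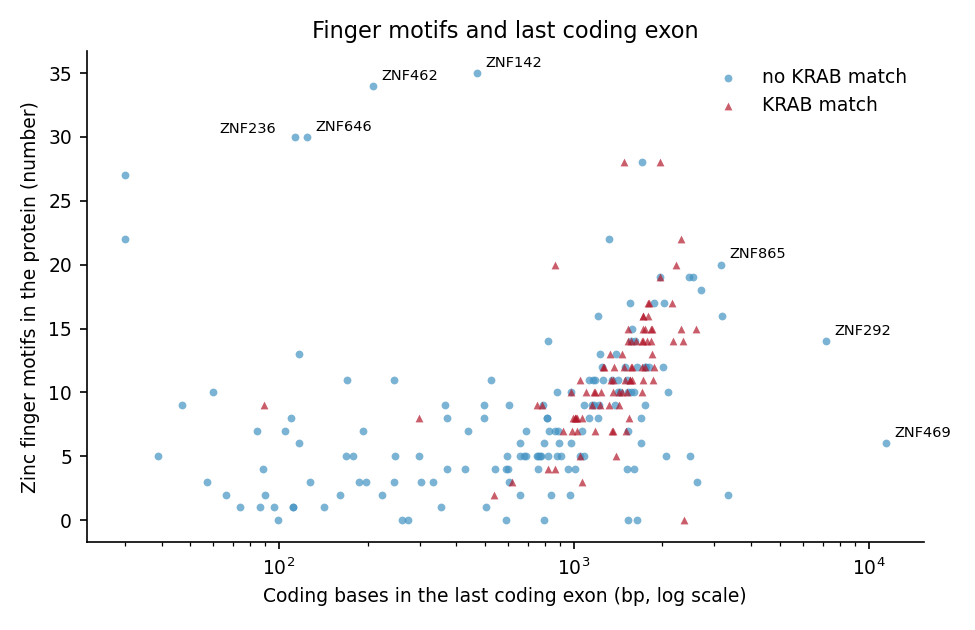
Number of finger motifs in each of the 240 proteins against the coding bases in the last coding exon (bp, log scale), with triangles for genes with a KRAB match and circles for the others. Proteins with more motifs mostly sit at longer exons, whereas ZNF142, ZNF462, ZNF236 and ZNF646, with 30 to 35 motifs, sit at exons of 113 to 470 bases.

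Across the 240 genes, the number of motifs and the length of the last coding exon had a Spearman's rho of 0.556 and a Pearson's r of 0.248. These are descriptions over genes, which share ancestry and are not independent replicates.

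The genes with the most fingers did not follow the common plan. ZNF142 had 35 fingers in 6 coding exons, ZNF462 had 34 in 10 and ZNF236 had 30 in 18. ZNF646 had 30 as well, but all in its first coding exon of 5359 bases, ahead of a last coding exon of 125. ZNF423 had 85.2% of its 27 fingers in a coding exon of 3215 bases, and ZNF521 had 81.8% of its 22 in a coding exon of 2910 bases. Of the 191 members with at least 5 fingers, 152 (79.6%) had them all in 1 coding exon, which was the last in 150. In the 236 other protein-coding genes with as many fingers, 157 (66.5%) had them all in 1 coding exon.

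No finger motif was found in 8 members: ZNF185, ZNF330, ZNF365, ZNF503, ZNF703, ZNF750, ZNF839 and ZNF862. ZNF185 is known as an actin-associated protein with a LIM domain, a zinc-binding fold of another kind. ZNF750, a regulator of epidermal differentiation, and ZNF703 and ZNF503, a related pair of transcriptional repressors, carry atypical fingers that the motif does not cover. A count of 0 says that these residues were not found in this spacing.

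The KRAB box was searched by the letters FxDVxxxF or LYxxVM, where x is any residue. A match, or its absence, says only whether these letters were found, and not whether a KRAB box is present. A match was found in 89 members (37.1%) and in 1.07% of the other protein-coding genes (0.54% of named genes). Among LOC zinc finger protein genes it was found in 89 of 129 (69%). Members in clusters matched in 51 of 89 (57.3%) and members outside in 38 of 151 (25.2%). The match lay ahead of the last coding exon in 87 of the 89, most often in the second coding exon (50 genes) or the third coding exon (22 genes), and in the last in ZNF341 and ZNF891. In 87 of the 89 genes all fingers came after it. In ZNF341, 0 of the 9 fingers lay wholly in the exon of the match.

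The genes encoding partners of KRAB proteins were built differently from the numbered ZNF genes. Of 18 listed cofactors of the silencing complex, 17 were found by symbol, and TASOR was not matched. Their median exon number was 16 and their median last coding exon 141 bases, 5.20% of the coding sequence. The named genes had medians of 9 exons, 162 bases and 12.8%, so a short last coding exon was not particular to these partners. CBX1, a heterochromatin protein, had the largest share at 45.4%, and CHD4, a chromatin remodeler, the smallest at 0.314%. TRIM28, the corepressor that KRAB boxes bind, lay at chr6:63094382-63101532 on the plus strand, 28.251 kb from ZNF446 at the end of a cluster of 6 numbered ZNF genes. CHD4 lay 45.828 kb from ZNF384 on chromosome 5, and SETDB1, the histone methyltransferase recruited by TRIM28, lay 300.742 kb from ZNF687 on chromosome 4. The others were over 700 kb from any member, except that MPHOSPH8, a chromatin reader, lay on chromosome 11, which has none.

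The numbered ZNF genes had few exons. Their median was 5 (quartiles, 4 and 7; range, 1 to 32), that of the other protein-coding genes 7 (quartiles, 3 and 13), and that of both the LOC zinc finger protein genes and the other named families 4. The median was 5 in clusters and 6 outside, and in clusters no gene had over 11. ZNF236 had the most exons, 32, followed by ZNF638 with 28, ZNF335 with 26, ZNF185 with 24 and ZNF106 with 22. ZNF335 spread its 13 fingers over 10 coding exons. ZNF638, known as a nuclear protein that binds nucleic acids, had 2 fingers.

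A single exon was found only in ZNF132 (0.417% of members), compared with 11.5% of the other genes and 2.98% of named genes. ZNF132 was single-exon only after its 3 pieces, under 10 bases apart, had been joined, and as deposited 0 members and 10.2% of the other genes had a single exon. The coding sequence lay in 1 exon in 28 members (11.7%), a share below that of all other genes (15.3%) and above that of named genes (6.51%). In 26 of these 28 members at least 1 exon preceded the one with the start codon, as in ZNF146 and ZNF260 with 2 such exons, and the exceptions were ZNF19 and ZNF132. At least 1 exon ahead of the start codon exon was present in 137 members (57.1%), in 28.7% of the other genes and in 32.7% of named genes. The share was close to that of members in the LOC zinc finger protein genes (52.7%) and in the other named families (50.5%). In 18 members there were 2 exons, ZNF22, ZNF281, ZNF319 and ZNF329 being the first of them by symbol.

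The 5′ UTR had a median of 385 bases (quartiles, 164.75 and 961.5), beside 179 (quartiles, 62 and 432) in the other protein-coding genes, 363 in the LOC zinc finger protein genes and 260 in the other named families. ZNF462 had the longest at 12948 bases. ZNF275 followed with 8486, ZNF581 with 5519, ZNF197 with 4694 and ZNF787 with 3741. ZNF425, ZNF483, ZNF628 and ZNF652 had no 5′ UTR (1.67% of members, 12% of the other genes and 5.52% of named genes), and ZNF835 had 7 bases.

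The 3′ UTR, the part of a transcript that a 3′ library reads most, was measured downstream of the stop codon, in exon bases, on whichever coding transcript reached farthest 3′. The numbered ZNF genes had a median of 1342.5 bases (quartiles, 610.5 and 2615.25), the other protein-coding genes 709 (quartiles, 208 and 1853). The LOC zinc finger protein genes had 1296 and the other named families 2093. Members in clusters had a median of 1124 bases and members outside 1644.

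**Figure D5:**
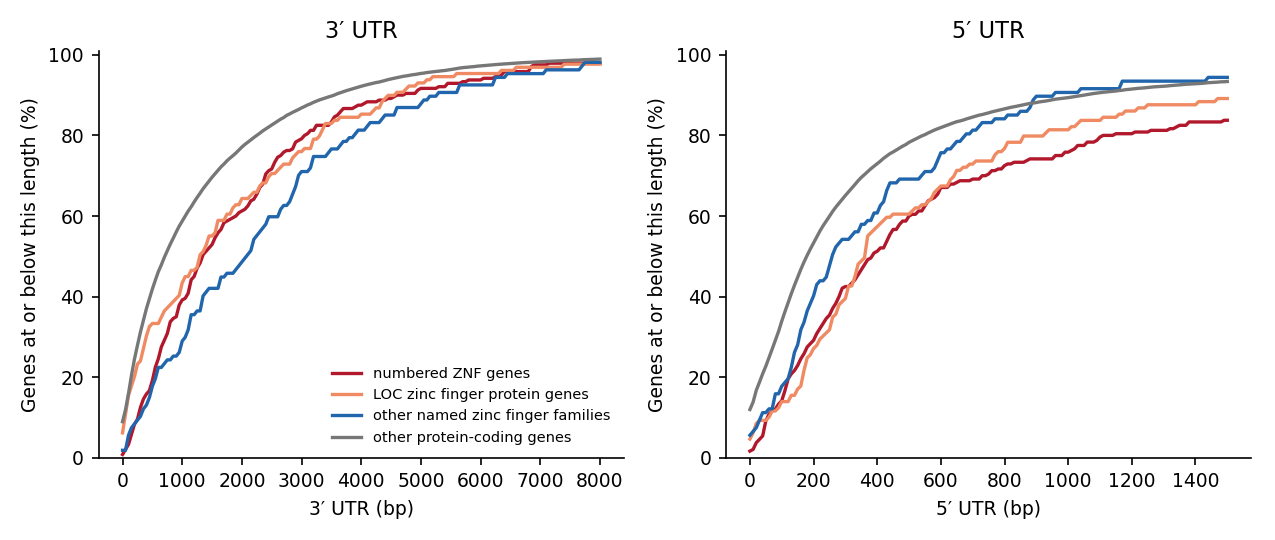
Cumulative percentage of genes by length of the 3′ UTR (left, bp, shown to 8000) and of the 5′ UTR (right, bp, shown to 1500), for the same 4 groups of genes. The median 3′ UTR is 1342.5 bases in numbered ZNF genes and 2093 in the other named families, and the median 5′ UTR is 385 and 260.

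A 3′ UTR over 5000 bases was found in 20 members (8.33%) and in 4.63% of the other genes. ZNF704 had the longest at 13153 bases, and it also had a last coding exon of 112 bases and 1 finger. ZNF81 had 10040 bases, ZNF652 had 8789, ZNF671 had 8537 and ZNF35 had 8385.

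At the short end, ZNF215 and ZNF608 had no 3′ UTR (0.833%, compared with 8.97% of the other genes and 2.44% of named genes). A 3′ UTR under 100 bases was present in 8 members (3.33%), in 15.9% of the other genes and in 8.58% of named genes. The other 6 were ZNF428 with 15 bases, ZNF232 with 33, ZNF524 with 49, ZNF408 with 51, ZNF414 with 61 and ZNF358 with 76. Cell Ranger counts a read only in the exons of a gene model, so reads beyond these ends were outside the gene. None of the 240 models differed in its exons from the RefSeq annotation that the authors had edited, so the lengths given here are those of RefSeq.

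The stop codon lay in the last exon in 230 members (95.8%) and in 94.8% of the other genes. In the other 10 members 1 to 4 exons followed the one with the stop codon, with 4 in ZNF19 and 3 in ZNF862. A poly(A) signal hexamer, AATAAA or ATTAAA, was present on the gene strand in the last 50 bases of 164 members (68.3%), of 60.8% of the other genes and of 69.9% of named genes. A hexamer match is a description of these letters and not of a used site.

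Exon bases shared with a gene on the same strand, where Cell Ranger assigns no read to either gene, were found in 13 members (5.42%) and in 3.34% of the other genes. The share was higher in the LOC zinc finger protein genes (14.7%) and in the other named families (8.41%). Among the 13 members, ZNF19 and ZNF23 shared the most, 2297 bases, and ended at the same base of chromosome 6. The model of ZNF19 had 6824 bases of 3′ UTR, that of ZNF23 had 166. ZNF76 shared 534 bases with DEF6, ZNF674 shared 502 with LOC110257782, ZNF566 shared 300 with LOC110255280 and ZNF581 shared 262 with LOC100627967. In the other 7 (ZNF132, ZNF174, ZNF248, ZNF319, ZNF416, ZNF662 and ZNF683), 67 to 147 bases were shared.

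Whether a 98-base read from the end of a gene could be placed uniquely was examined by searching every 98-base window of its last 500 exon bases on both strands of the genome. At least 50% of the windows recurred elsewhere in 1 member (0.417%), ZNF304, compared with 4.15% of the other genes but 0.546% of named genes. All 403 windows of ZNF304 had an exact copy, and the middle one recurred at chr6:61862227-61862324 on the minus strand, within an exon of the long noncoding RNA LOC110261328. At least 1 recurring window was found in 15 members (6.25%), in 29.9% of the other genes and in 23.3% of named genes. The share was 7.48% in the other named families, close to that of members, and 18.6% in the LOC zinc finger protein genes. After ZNF304, the next highest members were ZNF671 with 37.2% of windows, ZNF471 with 33.3% and ZNF296 with 29.5%. Its own place included, the middle recurring window of ZNF471 was found at 3209 places of the genome and that of ZNF671 at 12. ZNF260 had 9.18% of its windows repeated, with a copy in an intron of PITPNM3 on chromosome 12.

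Some members faced a neighbor on the opposite strand. Head-to-head starts within 1000 bases, without overlap of the genes there, were found in 23 members (9.58%), in 8.26% of the other genes and in 9.58% of named genes, so that the share was near the background. The 23 distances were 13 to 190 bases. In 5 of these pairs both genes were numbered ZNF genes: ZNF568 and ZNF829 (20 bases), ZNF200 and ZNF263 (29), ZNF581 and ZNF784 (47), ZNF45 and ZNF404 (77), and ZNF10 and ZNF891 (92). ZNF146 faced COX7A1, a subunit of a respiratory chain enzyme, at 164 bases, and ZNF142 faced BCS1L, an assembly factor of the respiratory chain, at 27. Starts that overlapped by up to 1000 bases were found in a further 12 members, among them the pair ZNF646 and ZNF668 with an overlap of 367 bases. These brought the number to 35 members (14.6%), beside 12.4% of the other genes and 14% of named genes, again near the background.

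The spans of 10 members overlapped that of another member. ZNF565 lay wholly within ZNF146, on the opposite strand, and was the closest pair by this measure. In all, 8 members lay strictly inside the span of another protein-coding gene, among them ZNF232 and ZNF594 in RABEP1 and ZNF750 in TBCD. ZNF23 lay within ZNF19 with a shared end, which made 9. No share over the other protein-coding genes is given for nesting, so these counts describe the members only. Downstream, the next gene on the same strand began a median of 24.7 kb after the member ended, and within 1000 bases in 5 members. This distance was measured for members only, so it has no background among the other genes.

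The models themselves were less certain in part of the family. RefSeq marked the product of 39 members (16.2%) as low quality, compared with 9.99% of the other genes. Exon pieces under 10 bases apart, which RefSeq places where it corrects a reading frame against the genome, occurred in 38 members (15.8%) and in 11.2% of the others, and were joined here. In 9 members, ZNF19, ZNF132 and ZNF215 among them, the coding sequence taken from the genome did not read through in 1 frame, so their finger counts may be too low.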

How the data were processed

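The authors made 1 single-cell library from the SMGs of each of 8 newborn pigs, 4 wild-type and 4 CFTR−/−. The values used are exon and coding-segment coordinates, counted from 1, in the annotation the authors deposited: NCBI Sus scrofa Annotation Release 106 on Sscrofa11.1, edited by the authors and used with Cell Ranger (3.0.2 in the submitters' processing notes). Cell counts were not analysed here, so the depth is unknown.

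Last coding exon, exon number, 5′ UTR and motifs were taken from the transcript with the longest coding sequence, and 3′ UTRs from the coding transcript that ends farthest 3′. Exon pieces under 10 bases apart were joined after the values had been seen. No protein table was used, so motifs were counted in coding sequence translated from the RefSeq genome of the same build. With no value per animal, groups were described by counts, medians and quartiles, without tests. Members and lists were chosen with earlier results of these data known. The genes named are the 5 highest and 5 lowest per measure, the clusters with the most members (3, or 5 with ties), the closest pair, the 3 most isolated genes, those that share exons or lack a 3′ UTR, and the KRAB cofactors. Other genes, the junctions shown, and the combined clusters were chosen after values had been seen. The measures were tested on simulated gene models. Python 3.11.15, numpy 2.4.6, scipy 1.17.1, numba 0.67.0 and matplotlib 3.10.9 were used.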

Additional observations from a re-analysis of the deposited data

How the results depend on the processing

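No paired analysis was possible because no animal or library has a value of its own in the annotation. Of 23 alternatives to 9 results, 17 stayed within the limit set for a change, 6 moved further and 0 changed direction. Counting all bases of the last coding exon, UTR included, widened the difference in medians from 970 to 1586.5 bases (2618.5 in members and 1032 in the other genes). The median exon number was 2 lower in members (difference, -2), and this became -1 with the transcript of most exons and -4 against named genes only. The 5′ UTR difference of 206 bases became 126.5 with the transcript that starts farthest 5′. Members with recurring 3′ ends rose from 1 to 3 with windows of 50 bases, and were 3 as well over the last 200 exon bases. The cause was not tested. Clusters held 89 members at 200 kb, 75 at 100 kb, 109 at 500 kb and 74 by gene order with at most 2 genes between. With exon pieces left as deposited, an alternative added after seeing the data, the difference was 819.5 bases for the last coding exon and -1.5 for exons. The share of genes with a single coding exon was higher in members than in named genes only and lower than in all other genes, and that with a poly(A) hexamer the reverse. The depth of the libraries is unknown.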

Other observations

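A pair of genes with a ZNF symbol and digits, ZNF532 and ZNF648, were annotated as long noncoding RNA and were not counted among the 240.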
